A study of Mus musculus with 8 samples.

Results

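Calcium, sodium, HCN and TRP channel genes were examined on expression arrays of the suprachiasmatic nucleus (SCN), the paired hypothalamic nucleus that sets daily rhythms in mammals. The genes were chosen by name. A gene belonged to the set if its single annotated symbol began with Cacn, Hcn, Trpc, Trpm or Trpv, or with Scn followed by a digit, and Nalcn was added. Of 19938 genes with a probe set of 1 annotated symbol, 60 met this rule. Each was read from its probe set with the highest mean over the 8 arrays. A gene entered the tests if its mean lay above the 40th percentile of all probe sets, a log2 level of 6.82, and 42 of the 60 did. The rule by name also brought in Trpc4ap, which encodes an adaptor protein, and Trpc5os, a transcript from the strand opposite Trpc5, and neither forms a channel pore.

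SCN neurons fire faster by day than by night, and they do so even when isolated. Voltage-gated calcium channels, whose pore is an alpha1 subunit and whose delivery and gating are set by alpha2delta and beta subunits, admit calcium at each action potential. The sodium leak channel NALCN and the HCN channels, which open on hyperpolarization and bind cyclic AMP, help to hold neurons near firing threshold. Voltage-gated sodium channels carry the upstroke of the action potential. TRP channels are cation channels opened by receptors, lipids, ions, heat or oxidants. Gpr176 encodes an orphan receptor, found in SCN neurons, whose activity lowers cyclic AMP.

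The groups were Gpr176-/- mice (KO) at circadian time 18 (CT18, subjective night), KO mice at circadian time 6 (CT6, subjective day), wild-type mice (WT) at CT18 and WT mice at CT6. All were of the C57BL/6J strain and in constant darkness after more than 2 weeks under 12 h of light and 12 h of dark. A group consisted of 2 arrays, lettered A and B. The laser-microdissected SCN of 10 animals were pooled for an array, so p-values measure the spread between pools and not between animals. Age, sex and the design of the deleted allele are not stated in the labels.

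The median deposited log2 values of the arrays lay between 7.34 and 7.39, and A and B of a group correlated at 0.996 to 0.998. The first principal component, with 51.9% of the variance, separated all CT18 arrays from all CT6 arrays. The second, with 18.1%, was led by WT CT18 A at 9.17 and KO CT18 A at -8.86, so counts are also given without both. Gpr176 itself had log2 levels of 8.42 and 8.56 in KO at CT18 and 8.08 and 8.02 in KO at CT6, against 9.73 and 9.87 in WT at CT18 and 9.37 and 9.31 in WT at CT6. It was lower on every KO array than on any WT array, as the labels say. All 12 markers of SCN neurons lay above the level filter. Of 6 choroid plexus markers 4 lay under it, including Ttr. In pooled tissue, fewer cells of a type and less RNA per cell cannot be told apart.

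Between subjective night and subjective day, taken over both genotypes, 10 of the 42 channel genes changed (23.8%, against 16.8% of all 12452 genes tested). Higher at CT18 were 6 genes (14.3%, against 10% of all genes). They were Cacna1c, Cacna2d1, Hcn4, Trpc6, Trpc4 and Cacna1i. Lower at CT18 were 4 (9.52%, against 6.79% of all genes), namely Cacna1g, Trpv2, Trpm7 and Trpc5. At an unadjusted p under 0.05 there were 18 of 42, against 30.5% of all genes. The median difference, CT18 minus CT6, was 0.0484 on the log2 scale over the 42 genes and 0.0104 over all genes, and 27 of the 42 lay above 0 (64.3%, against 54.5%). Groups of 4 arrays that did not overlap were found for 5 channel genes with CT18 higher, against a share of 12.6% of all genes, and for 3 with CT18 lower, against 8.3% of all genes. Without both CT18 A arrays, 5 of the 42 were called, against 8.58% of all genes. By marker lists, summed here as the mean log2 level of a list on an array, oligodendrocyte genes (7 of 7 above the filter) ranged over 9.39 to 9.77 at CT18 and 9.58 to 9.82 at CT6. Ependymal genes (4 of 4) ranged over 9.07 to 9.23 at CT18 and 9.18 to 9.32 at CT6. The 12 SCN neuron markers, several of them clock-controlled, ranged over 10.41 to 10.46 at CT18 and 10.77 to 10.86 at CT6. The blood marker Alas2 ranged over 6.89 to 7.02 at CT18 and 7.05 to 7.25 at CT6. Oligodendrocyte precursor genes (5 of 5) ranged over 8.24 to 8.38 at CT18 and 8.16 to 8.30 at CT6. Leptomeningeal genes (5 of 6) ranged over 7.69 to 8.31 at CT18 and 7.84 to 8.28 at CT6. Endothelial and mural genes (6 of 6) ranged over 7.97 to 8.14 and 8.08 to 8.17. Neighbouring hypothalamic neuron markers ranged over 9.39 to 9.51 and 9.37 to 9.67. The mean CT18 minus CT6 difference was 0.00724 for astrocytes, -0.00821 for microglia and 0.00468 for choroid plexus. The part of these cells in the day-night differences was not tested.

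**Figure D1:**
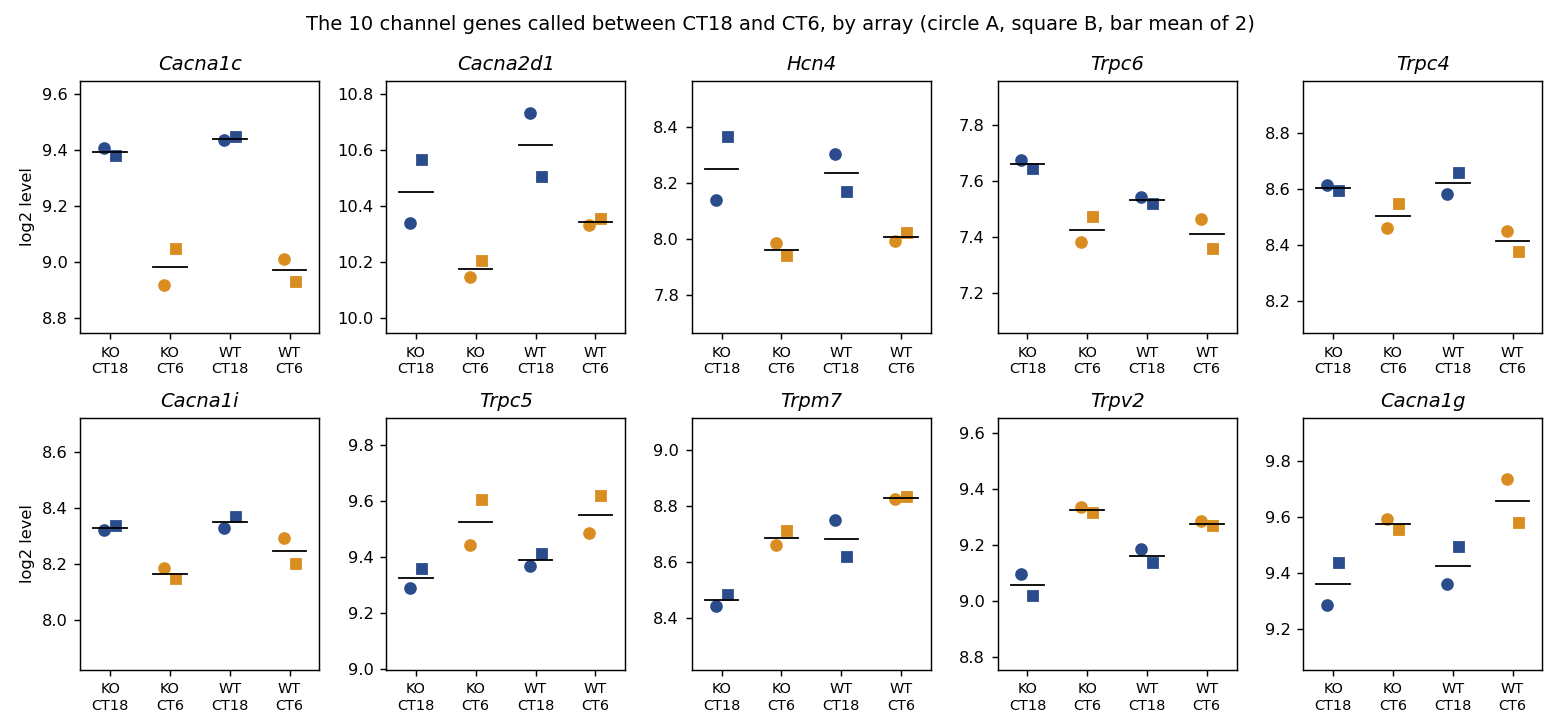
Log2 level of the channel genes called between CT18 and CT6 on each of the 8 arrays, with KO and CT18 drawn first and group means as bars. Cacna1c lies between 9.38 and 9.45 on the CT18 arrays and between 8.92 and 9.05 on the CT6 arrays.

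**Figure D2:**
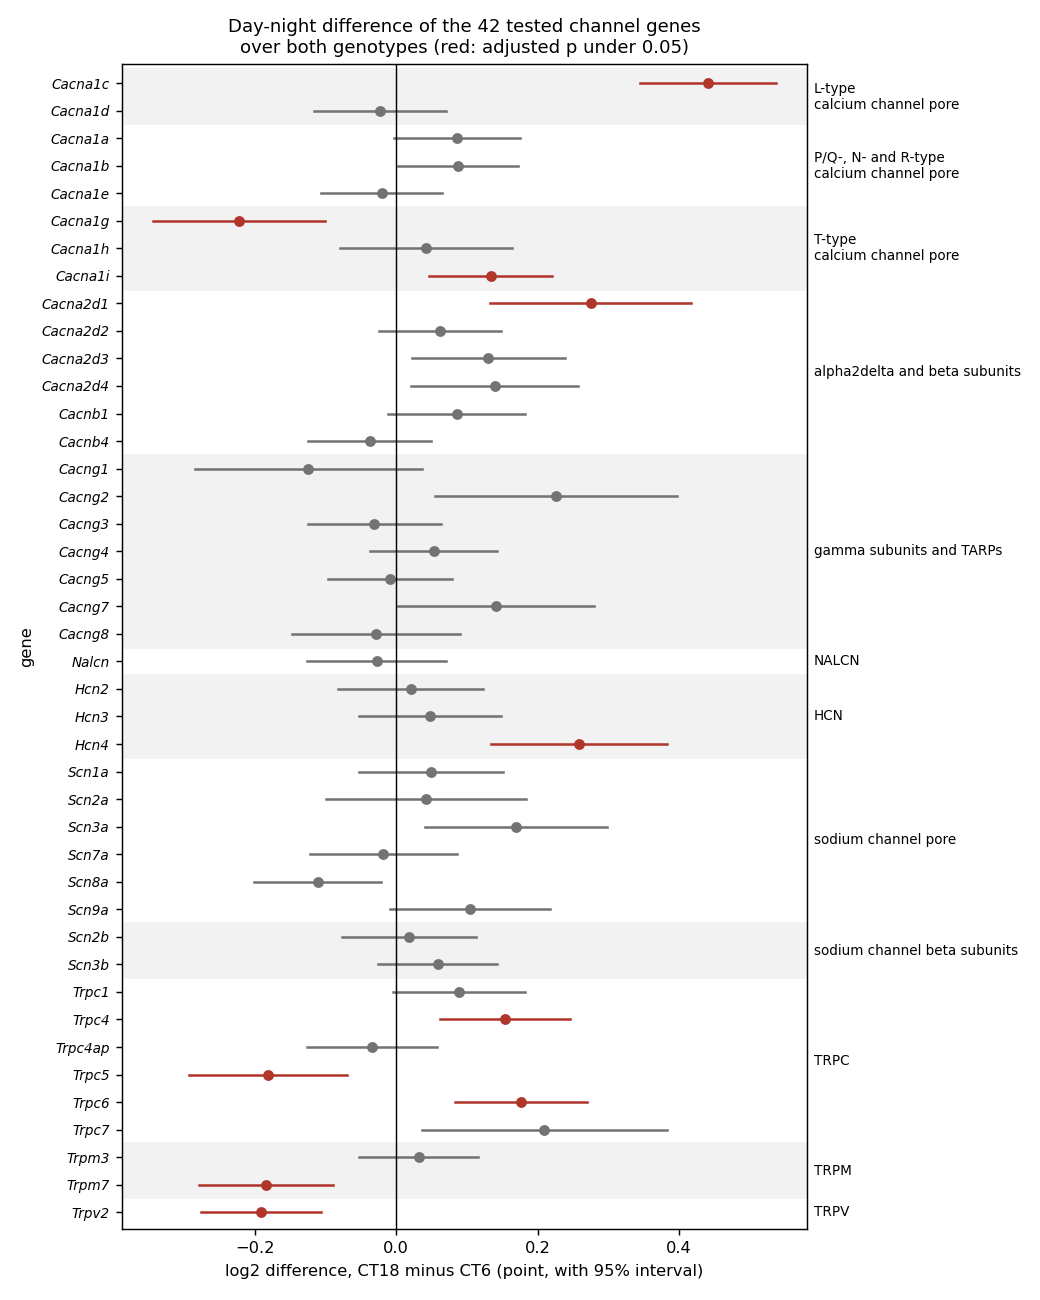
Difference between CT18 and CT6 over both genotypes for each of the 42 tested channel genes, on the log2 scale, with the 95% interval from limma as a bar and called genes in red. Cacna1c is the farthest to the right at 0.44 and Cacna1g the farthest to the left at -0.22.

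The promoters of the called genes were read as reference sequence from RefSeq (build GRCm38.p6), as windows of 250 bases before to 50 bases after each annotated start. Of the 60 genes 50 had a window, and so did 9 of the 10 called genes, with 13 windows among them. Cacna1g had none in the table. The windows were searched on both strands for letters that clock and cyclic AMP factors are known to bind. The half-site TGACG of the cyclic AMP response element stood in 5 of the 13 windows (38.5%), in 12 of the 64 windows of all channel genes (18.8%) and in 20.8% of the 32851 windows in the table. The E-box CACGTG stood in 1 of the 13 windows, that of Trpm7, and in 7.15% of all windows. The full element TGACGTCA (1.79% of all windows), the D-box TTATGTAA or TTACGTAA (1.06%) and the ROR core AGGTCA (16.3%) were in 0 of the 13. All 13 windows belong to genes that changed between night and day. No match stood in the windows of Hcn4, Trpc4, Trpc5 and Trpv2 or in all but 1 of the Cacna1c windows, and those are not shown. The 5 windows shown are the ones with a match. They read 5′ to 3′ along the gene, with matches in capitals (CGTCA is the half-site on the other strand).
Cacna1c: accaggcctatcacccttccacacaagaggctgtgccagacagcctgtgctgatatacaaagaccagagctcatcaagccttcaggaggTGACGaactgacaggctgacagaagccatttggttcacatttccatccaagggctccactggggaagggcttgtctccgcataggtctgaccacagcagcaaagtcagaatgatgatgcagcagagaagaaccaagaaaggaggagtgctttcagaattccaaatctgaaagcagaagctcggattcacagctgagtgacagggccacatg
Cacna2d1: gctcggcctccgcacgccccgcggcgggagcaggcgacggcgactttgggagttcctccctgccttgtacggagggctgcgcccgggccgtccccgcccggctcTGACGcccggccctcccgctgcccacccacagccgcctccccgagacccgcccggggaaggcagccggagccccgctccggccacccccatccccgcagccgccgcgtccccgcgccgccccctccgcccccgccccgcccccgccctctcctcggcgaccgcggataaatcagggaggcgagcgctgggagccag
Cacna1i: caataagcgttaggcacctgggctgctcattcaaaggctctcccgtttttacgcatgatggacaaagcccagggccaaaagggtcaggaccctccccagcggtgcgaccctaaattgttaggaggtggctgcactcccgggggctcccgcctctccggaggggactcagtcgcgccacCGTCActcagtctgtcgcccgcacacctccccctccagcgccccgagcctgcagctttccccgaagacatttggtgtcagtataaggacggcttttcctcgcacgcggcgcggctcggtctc
Trpc6: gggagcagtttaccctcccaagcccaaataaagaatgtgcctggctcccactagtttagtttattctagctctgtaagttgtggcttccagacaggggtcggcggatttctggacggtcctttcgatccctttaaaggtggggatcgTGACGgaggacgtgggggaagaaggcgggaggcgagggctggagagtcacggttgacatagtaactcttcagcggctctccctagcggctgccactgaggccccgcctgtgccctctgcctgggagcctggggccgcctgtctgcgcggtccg
Trpm7: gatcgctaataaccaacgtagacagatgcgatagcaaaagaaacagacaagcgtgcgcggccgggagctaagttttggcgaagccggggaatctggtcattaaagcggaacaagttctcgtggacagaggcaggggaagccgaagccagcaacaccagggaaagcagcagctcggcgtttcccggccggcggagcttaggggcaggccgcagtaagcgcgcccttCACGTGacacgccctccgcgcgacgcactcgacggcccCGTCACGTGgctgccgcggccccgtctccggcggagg
The Cacna1c window lies at chr6:119196360-119196659 on the minus strand, and its half-site begins 161 bases before the start. It is 1 of several starts annotated for that gene. The Cacna2d1 window lies at chr5:15934441-15934740 on the plus strand, with the half-site 146 bases before the start and a GC content of 80.0%. The Cacna1i window lies at chr15:80286988-80287287 on the plus strand, with the half-site 72 bases before the start. The Trpc6 window lies at chr9:8543892-8544191 on the plus strand, with the half-site 103 bases before the start. The Trpm7 window lies at chr2:126876212-126876511 on the minus strand. It holds 1 E-box 25 bases before the start and a second 16 bases after it, and the second overlaps a half-site that begins 13 bases after the start. A match of letters is a description and not evidence of a bound site.

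Among the pores of L-type calcium channels, Cacna1c (Cav1.2) was called and Cacna1d (Cav1.3) was not. Cacna1c measured 9.41 and 9.38 in KO and 9.44 and 9.45 in WT at CT18, against 8.92 and 9.05 in KO and 9.01 and 8.93 in WT at CT6. All 4 night arrays lay above all 4 day arrays. The difference was 0.44 ± 0.0430 (standard error, 4 arrays against 4), a 1.36-fold higher level at CT18 (limma adjusted p 0.000136). It stayed called without any single array, with a highest adjusted p of 0.00131. Cacna1d, the L-type pore that opens at less depolarized voltages, measured 9.10 and 9.14 in KO and 9.16 and 9.16 in WT at CT18, against 9.05 and 9.18 in KO and 9.19 and 9.22 in WT at CT6. Its difference of -0.02 had a 95% interval of -0.116 to 0.0698. Cacna1f, known from the retina, and Cacna1s, known from skeletal muscle, lay under the level filter.

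The P/Q-, N- and R-type pores, which serve transmitter release and dendrites, had no called member of 3. Cacna1a differed by 0.09 ± 0.0397 (adjusted p 0.181) and Cacna1b by 0.09 ± 0.0378 (adjusted p 0.153). Cacna1e differed by -0.02 ± 0.0383.

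Of the 3 T-type pores, which open near resting voltage, 1 was higher and 1 lower at night. Cacna1g (Cav3.1) measured 9.29 and 9.43 in KO and 9.36 and 9.49 in WT at CT18, against 9.59 and 9.55 in KO and 9.74 and 9.58 in WT at CT6. The 4 night arrays were all below the 4 day arrays, and the difference was -0.22 ± 0.0542 (adjusted p 0.0207). The call was lost when any one of the 4 A arrays was left out (KO CT18 A, KO CT6 A, WT CT18 A or WT CT6 A), with adjusted p up to 0.0724. Cacna1i (Cav3.3) measured 8.32 and 8.34 in KO and 8.33 and 8.37 in WT at CT18, against 8.19 and 8.15 in KO and 8.29 and 8.20 in WT at CT6. Night lay above day on every array, by 0.13 ± 0.0390 (adjusted p 0.0435). That call was lost without any array other than WT CT6 A, with adjusted p up to 0.134, and also with the values as deposited (just above 0.05) or median centred (0.0707), with no filter (0.0713) and with a replicate block (0.0607). Cacna1h (Cav3.2) differed by 0.04 ± 0.0543.

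The alpha2delta and beta subunits, which carry calcium channel pores to the membrane and tune their gating, had 1 called gene of 6 tested. Cacna2d1, a target of gabapentin, measured 10.34 and 10.56 in KO and 10.73 and 10.50 in WT at CT18, against 10.15 and 10.20 in KO and 10.33 and 10.35 in WT at CT6. The KO CT18 A array fell among the day arrays, so the groups overlapped, although within each genotype night lay above day. The difference was 0.28 ± 0.0634 (adjusted p 0.0163), and the call was lost without KO CT18 B or WT CT6 A (adjusted p up to 0.0561). A second probe set of Cacna2d1 differed by 0.10 ± 0.0338 and was not called when every probe set was tested separately (adjusted p 0.165, against 0.0681 for the brighter one in that fit). Cacna2d3 at 0.13 ± 0.0483, Cacna2d4 at 0.14 ± 0.0528, Cacna2d2 at 0.06 ± 0.0388, Cacnb1 at 0.09 ± 0.0431 and Cacnb4 at -0.04 ± 0.0388 did not pass the test, and Cacnb2 lay under the filter. Without KO CT6 B, Cacna2d3 (adjusted p 0.0320) and Cacna2d4 (0.0461) were called.

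The gamma family mixes a muscle calcium channel subunit, Cacng1, with the TARPs, auxiliary proteins of AMPA receptors. None of its 7 members was called between night and day. Cacng2, or stargazin, came nearest. It measured 9.85 and 9.81 in KO and 9.67 and 9.92 in WT at CT18, against 9.44 and 9.65 in KO and 9.77 and 9.50 in WT at CT6. The WT CT6 A array lay above WT CT18 A, and the difference was 0.23 ± 0.0764 (adjusted p 0.0721). The missing call depended on the setting. Cacng2 was called with the values as deposited (adjusted p 0.0394), median centred (0.0387) or as the mean over probe sets (0.0219), and without WT CT6 A (0.0403), WT CT18 A (0.0397) or KO CT6 B (0.0451). A second Cacng2 probe set differed by 0.23 ± 0.0437 and passed when every probe set was tested separately (adjusted p 0.0267).

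Among channels that depolarize neurons between action potentials, Hcn4 was higher at night. It measured 8.14 and 8.36 in KO and 8.30 and 8.17 in WT at CT18, against 7.99 and 7.94 in KO and 7.99 and 8.02 in WT at CT6. The groups did not overlap, and the difference was 0.26 ± 0.0556, a 1.20-fold higher level at CT18 (adjusted p 0.0118). The call was kept without any single array, with a highest adjusted p of 0.0430. The HCN subunits Hcn2 at 0.02 ± 0.0457 and Hcn3 at 0.05 ± 0.0447 did not pass the test. Nalcn, the sodium leak channel, measured 10.66 and 10.75 in KO and 10.78 and 10.81 in WT at CT18, against 10.68 and 10.80 in KO and 10.78 and 10.86 in WT at CT6. Night and day arrays overlapped, and the difference of -0.03 had a 95% interval of -0.126 to 0.0704.

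Of 6 tested sodium channel pores and 2 beta subunits, none was called between night and day. Scn3a, a pore prominent in developing brain, had the smallest adjusted p at 0.0727, with a difference of 0.17 ± 0.0572. It was called with a trended robust prior (adjusted p 0.0439) and without KO CT6 B (0.0320). Scn8a (Nav1.6), the main pore at the axon initial segment, differed by -0.11 ± 0.0402 (adjusted p 0.0908, 95% interval -0.201 to -0.0210). Scn1a at 0.05 ± 0.0453, Scn2a at 0.04 ± 0.0630, Scn7a at -0.02 ± 0.0464 and Scn9a at 0.10 ± 0.0507 also did not pass. The pores of sensory neurons, Scn10a and Scn11a, and the subunit gene Scn4b lay under the filter.

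Of the 6 tested Trpc genes, which encode receptor-operated cation channels except the adaptor gene Trpc4ap, 2 were higher and 1 lower at night. Trpc6, opened by diacylglycerol, measured 7.68 and 7.64 in KO and 7.54 and 7.52 in WT at CT18, against 7.38 and 7.47 in KO and 7.46 and 7.36 in WT at CT6. Night lay above day without overlap, by 0.18 ± 0.0416 (adjusted p 0.0179). The call was lost without KO CT18 A, KO CT6 A, WT CT18 A or WT CT6 B (adjusted p up to 0.0647). Trpc4 and Trpc5, close relatives that pair with each other, went opposite ways. Trpc4 measured 8.62 and 8.60 in KO and 8.58 and 8.66 in WT at CT18, against 8.46 and 8.55 in KO and 8.45 and 8.38 in WT at CT6. Every night array was above every day array, by 0.15 ± 0.0410 (adjusted p 0.0299). Trpc5 measured 9.29 and 9.36 in KO and 9.37 and 9.41 in WT at CT18, against 9.44 and 9.60 in KO and 9.48 and 9.62 in WT at CT6. Every night array was below every day array, by a difference of -0.18 ± 0.0499 (adjusted p 0.0343). The Trpc4 call was lost without KO CT18 A, KO CT18 B, KO CT6 A, WT CT18 B or WT CT6 B (adjusted p up to 0.101), and also when median centred (0.0504) and with no filter (0.0511). The Trpc5 call was lost without any array other than KO CT6 A or WT CT6 A (adjusted p up to 0.118), and also as deposited (0.0787), median centred (0.0937) and with no filter (0.0613). Trpc1 differed by 0.09 ± 0.0415, Trpc7 by 0.21 ± 0.0774 (adjusted p 0.0970) and Trpc4ap by -0.03 ± 0.0409. Trpc7 was called without KO CT6 B (adjusted p 0.00441).

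The single tested TRPV gene and 1 of 2 tested TRPM genes were lower at night. Trpv2, a cation channel opened by noxious heat and by cannabinoids, measured 9.09 and 9.02 in KO and 9.18 and 9.13 in WT at CT18, against 9.33 and 9.31 in KO and 9.28 and 9.27 in WT at CT6. The groups did not overlap, and the difference was -0.19 ± 0.0379 (adjusted p 0.00798). The call was kept without any single array (adjusted p up to 0.0351). Trpm7, a magnesium- and calcium-permeable channel fused to a kinase, measured 8.44 and 8.48 in KO and 8.75 and 8.61 in WT at CT18, against 8.66 and 8.71 in KO and 8.82 and 8.83 in WT at CT6. Night was below day within each genotype, while the WT night array A lay above both KO day arrays. The difference was -0.18 ± 0.0422 (adjusted p 0.0160), and the call was lost without KO CT18 A, WT CT18 B or WT CT6 B (adjusted p up to 0.0559) and with the values as deposited or median centred. Trpm3, a steroid-sensitive channel, differed by 0.03 ± 0.0375.

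The 18 channel genes under the level filter had mean log2 levels of 5.13 to 6.78, and the closest gene above it was Cacna2d4 at 7.07. They included 6 of the 8 TRPM genes and 5 of the 6 TRPV genes, families best known from sensory and epithelial cells. With no filter, none of the 18 was called between night and day by limma, against 8.55% of all genes in that fit. Of the 18, 1 had an unadjusted p under 0.05 in that fit, against 30.5% of the genes above the filter in the main fit. The latter share is of genes with higher levels and from another fit, so the comparison is not a like one. The 1 gene of the 18 was Trpm2, opened by ADP-ribose and oxidants. It measured 6.70 and 6.76 in KO and 6.63 and 6.77 in WT at CT18, against 6.79 and 6.91 in KO and 6.86 and 6.82 in WT at CT6. Its night arrays lay just below its day arrays, by a difference of -0.13 ± 0.0476 (adjusted p 0.135). Trpv1, the capsaicin receptor, and Trpv4, an osmosensitive channel, had mean levels of 5.69 and 6.55.

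Within each genotype, with 2 arrays against 2, fewer channel genes passed. In KO, 3 of 42 were called (against 7.16% of all genes), 2 higher (against 3.63%) and 1 lower (against 3.53%), with 12 of 42 at an unadjusted p under 0.05 (against 22.6%). Cacna1c was higher at CT18 by 0.41 ± 0.0608 (adjusted p 0.00370), Trpc6 by 0.23 ± 0.0588 (adjusted p 0.0433), and Trpv2 had a difference of -0.27 ± 0.0536 (adjusted p 0.0164). The Trpv2 call was lost without KO CT18 B, KO CT6 A or KO CT6 B (adjusted p up to 0.115). The Trpc6 call was lost without any array other than WT CT6 A or WT CT6 B (adjusted p up to 0.213). It was also lost with the values as deposited (0.0644), median centred (0.1004), with no filter (0.0757), a trended robust prior (0.0609) or a replicate block (0.0632). The Cacna1c call was kept without any single array. Without both CT18 A arrays all 3 calls in KO were lost, with adjusted p of 0.0566 for Cacna1c, 0.228 for Trpc6 and 0.0695 for Trpv2, and Cacna2d1 and Hcn4 were called instead. Marker lists also separated the KO arrays by time. Leptomeningeal genes (5 of 6 above the filter) were at 7.69 and 7.75 at CT18, against 8.28 and 7.90 at CT6, and endothelial and mural genes (6 of 6) at 7.97 and 8.00, against 8.11 and 8.12. Oligodendrocyte genes were at 9.41 and 9.51, against 9.74 and 9.58, and ependymal genes at 9.20 and 9.23, against 9.32 and 9.29. Neighbouring hypothalamic neuron markers were at 9.47 and 9.51, against 9.67 and 9.57. SCN neuron markers were at 10.44 and 10.46, against 10.77 and 10.86, and Alas2 at 6.99 and 6.89, against 7.06 and 7.05. Oligodendrocyte precursor genes went the other way, at 8.24 and 8.31, against 8.16 and 8.21. The astrocyte, microglia and choroid plexus lists overlapped between the times in KO. Some of these lists separated the WT arrays too. SCN neuron markers were at 10.41 and 10.42 in WT at CT18, against 10.82 and 10.79 at CT6. Alas2 was at 6.90 and 7.02, against 7.15 and 7.25, and ependymal genes at 9.07 and 9.16, against 9.18 and 9.28. Oligodendrocyte precursor genes were at 8.384 and 8.303, against 8.276 and 8.301. The other lists overlapped between the times in WT. The part of these cells in the KO and WT calls was not tested. In WT, 1 of 42 was called (against 6.94% of all genes), with 1 higher (against 4.4%) and 0 lower (against 2.54%), and 11 of 42 had an unadjusted p under 0.05 (against 21.8%). The called gene was Cacna1c at 0.47 ± 0.0608 (adjusted p 0.00167), and it was kept without any single array.

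Whether the change between night and day differed between KO and WT was tested directly. None of the 42 channel genes was called by limma for this interaction, against 0% of all genes, and 0 had an unadjusted p under 0.05, against 4.87% of all genes. The smallest p-values belonged to Scn8a (-0.17 ± 0.0803), Trpv2 (-0.15 ± 0.0757) and Cacna2d4 (0.17 ± 0.106), given as the KO change minus the WT change, each with an adjusted p of 0.945. Day-night differences had the same sign in KO and WT for 35 of the 42 genes (83.3%, against 68.2% of all genes tested). The standard error of an interaction had a median of 0.0862 over the channel genes, which limits the size of a difference that could be called.

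**Figure D3:**
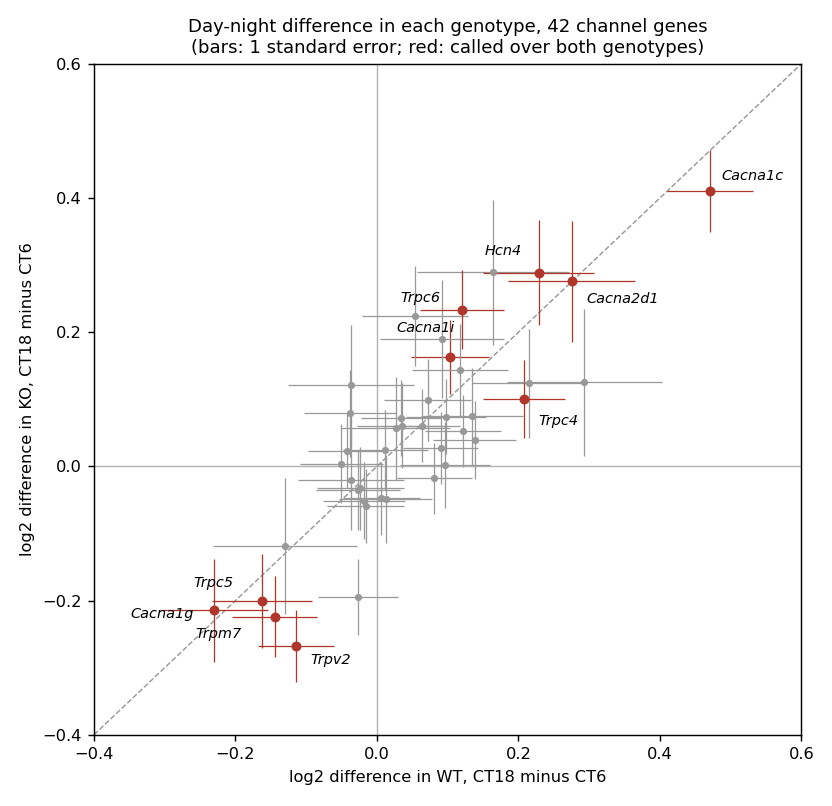
Difference between CT18 and CT6 in KO (vertical axis) and in WT (horizontal axis) on the log2 scale for the 42 tested channel genes, with bars of 1 standard error, called genes in red and the line of equal change dashed. Cacna1c lies at 0.41 in KO and 0.47 in WT, and Trpv2 lies at -0.27 in KO and -0.11 in WT.

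Between genotypes, no channel gene passed the test. Over both times limma called 0 of 42 (against 0.0241% of all genes), with 7 at an unadjusted p under 0.05 (against 12% of all genes). At CT18 it called 0 (against 0.00803%), with 4 at an unadjusted p under 0.05 (against 12.5%). At CT6 it called 0 (against 0.00803%), with 1 at an unadjusted p under 0.05 (against 4.24%). The differences were small and mostly below 0. The median KO minus WT difference over both times was -0.0423 over the 42 genes and -0.0101 over all genes, and 33 of 42 lay below 0 (78.6%, against 56.1%). With the values as deposited 36 of the 42 lay below 0, with medians of -0.0554 over the 42 and -0.0107 over all genes. With median centring 39 did, but the median over all genes was then also lower, at -0.0336. The level of neighbouring hypothalamic neuron markers (4 of 5 above the filter) ranged over 9.47 to 9.67 on the KO arrays and 9.37 to 9.43 on the WT arrays. Pomc was the marker under the filter. The mean KO minus WT difference of that list was 0.158. It was also above 0 for ependyma (0.0870), microglia (0.0429), choroid plexus (0.0196) and SCN neurons (0.0179). It was below 0 for leptomeninges (-0.111), oligodendrocytes (-0.106), oligodendrocyte precursors (-0.0855), Alas2 (-0.0824), astrocytes (-0.0797) and endothelial and mural cells (-0.0565). The part of these cells in the genotype differences was not tested.

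Trpm7 had the smallest p over both times and at each time. With the levels given above, both KO arrays lay below both WT arrays at CT18 and again at CT6. The difference over both times was -0.18 ± 0.0422, with an unadjusted p of 0.00172 and an adjusted p of 0.342. Scn9a (Nav1.7), a pore that boosts small depolarizations, came next. It measured 10.08 and 10.22 in KO at CT18 and 9.98 and 10.16 in KO at CT6, against 10.37 and 10.35 in WT at CT18 and 10.22 and 10.23 in WT at CT6. Its 4 KO arrays lay under all 4 WT arrays, but KO CT18 B at 10.218 and WT CT6 A at 10.223 were nearly level. The difference was -0.18 ± 0.0507 (adjusted p 0.342). A second Scn9a probe set differed by -0.18 ± 0.0412. Cacng8, a TARP, differed by -0.16 ± 0.0530 (adjusted p 0.367).

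Scn1a (Nav1.1), a pore of fast-spiking neurons, also had KO arrays that did not overlap with WT arrays. It measured 7.90 and 7.98 in KO at CT18 and 7.90 and 7.99 in KO at CT6, against 8.17 and 8.03 in WT at CT18 and 8.00 and 8.01 in WT at CT6. The gap between the closest KO and WT arrays was small, and the difference was -0.11 ± 0.0453 (adjusted p 0.397). KO arrays lay below WT arrays without overlap for these 2 of the 42 genes, against a share of 2.13% of all genes, and above them for 0, against 2.1%. Over both times, Cacna2d1 differed by -0.17 ± 0.0634, Scn3a by -0.14 ± 0.0572, Cacna1a by -0.10 ± 0.0397 and Nalcn by -0.09 ± 0.0439. Cacna1c differed by -0.02 ± 0.0430 between genotypes, with a 95% interval of -0.115 to 0.0782, and Hcn4 by -0.02 ± 0.0556, with one of -0.14 to 0.109.

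**Figure D4:**
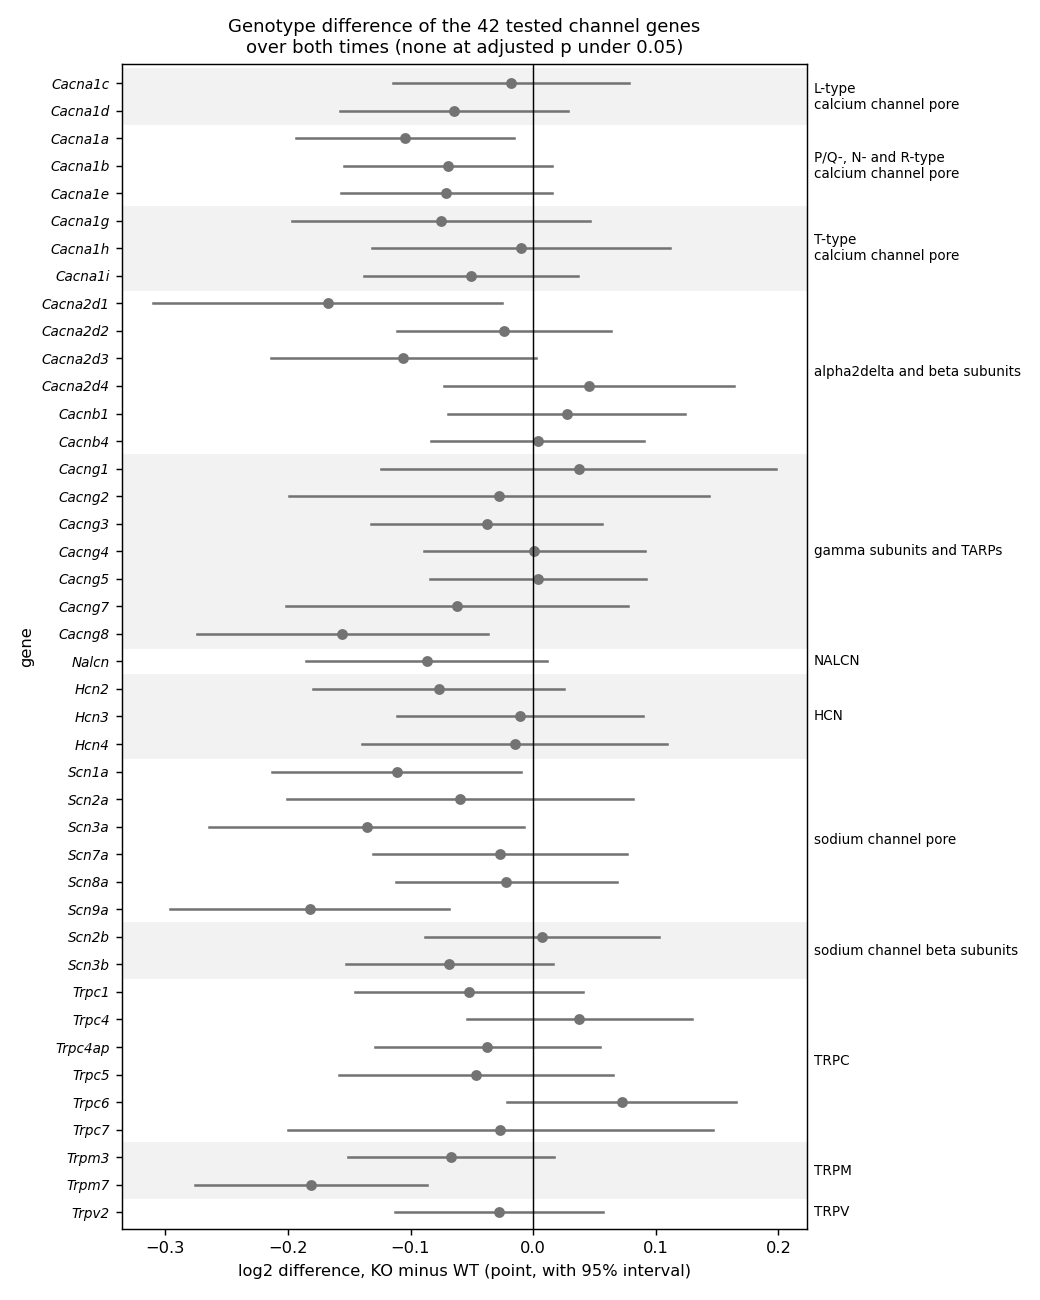
Difference between KO and WT over both times for each of the 42 tested channel genes, on the log2 scale, with the 95% interval from limma as a bar. Of the 42 points 33 lie to the left of 0, and no gene was called.

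Scn2a (Nav1.2), a pore of excitatory neurons, offered a comparison within a gene, because 14 probe sets carried its symbol. All 14 differed from 0 in the same direction between genotypes, with KO minus WT differences of -0.24 to -0.01 and a median of -0.14, and none was called. Between CT18 and CT6 the 14 ranged over -0.04 to 0.12, with 10 above 0 and none called. The probe set used for the gene, the brightest, was among the smaller genotype differences at -0.06 ± 0.0630. These probe sets read the same RNA on the same arrays and are not replicates. Another 3 probe sets were annotated to several sodium channel pore genes of Scn1a, Scn2a, Scn3a and Scn9a, and their KO minus WT differences were -0.22, -0.12 and -0.18. Such probe sets can read more than 1 of these similar genes.

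**Figure D5:**
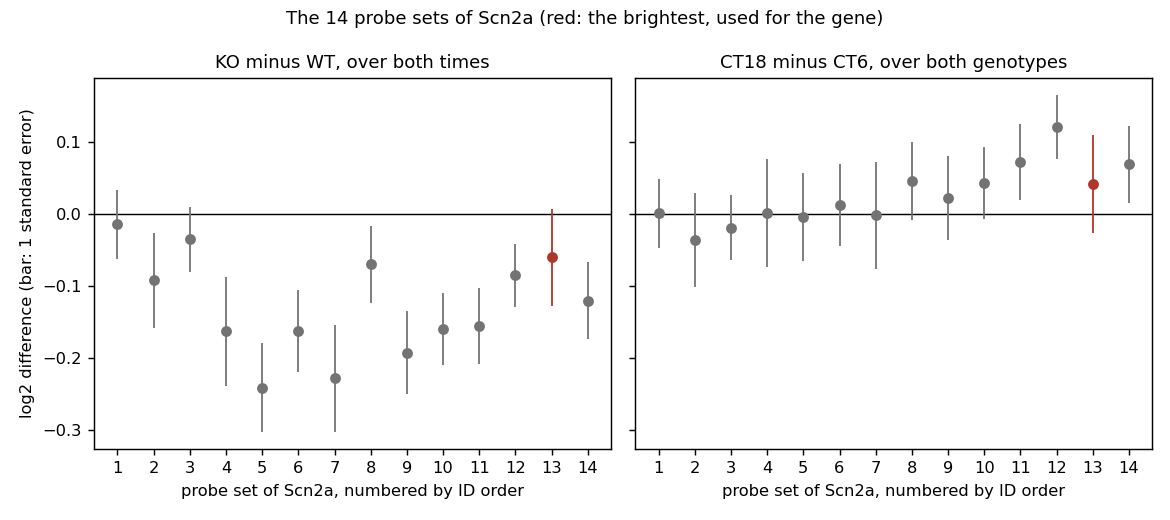
Log2 difference of each of the 14 probe sets of Scn2a, KO minus WT over both times on the left and CT18 minus CT6 over both genotypes on the right, with bars of 1 standard error and the brightest probe set in red. All 14 lie below 0 on the left, and 10 of 14 lie above 0 on the right.

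Gpr176 lies on chromosome 2, as do 9 of the 42 tested channel genes. Of these 9, 8 lay below 0 in KO minus WT, with a median of -0.0697. Scn1a, Scn2a, Scn3a, Scn7a and Scn9a, which form a cluster there, were all below 0, with a median of -0.111. Of the 33 channel genes on other chromosomes 25 lay below 0, with a median of -0.0278. The other 990 genes tested on chromosome 2 had a median of -0.00163, with 51.0% below 0, and the 11409 genes elsewhere had a median of -0.0107. By gene order, 132 protein-coding genes stand between Gpr176 and Trpm7, and 540 to 547 between Gpr176 and the genes of the sodium channel cluster. The labels do not say whether the KO mice carry flanking sequence of another strain there.

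Genes whose products act on these channels were counted from lists of their partners, between CT18 and CT6 over both genotypes. Of all genes tested, 10% were called higher and 6.79% lower in this comparison, and lists of so few genes can be set against those shares only roughly. Of 13 tested partners of voltage-gated calcium channels, 3 were higher and 2 lower. Gem, a small GTPase that inhibits these channels, differed by -0.64 ± 0.0684 (adjusted p 0.000235). Stac, an adaptor of L-type channels, differed by 0.48 ± 0.0596, and the calmodulin kinase genes Camk2d and Camk2g by 0.26 ± 0.0392 and -0.18 ± 0.0388. Of 3 partners of NALCN, 1 was higher, Fam155a, which encodes a subunit of the NALCN complex, at 0.26 ± 0.0361 (adjusted p 0.00121). Nalcn itself was not called. Of 10 partners of sodium channels, 1 was higher, Fgf14, at 0.26 ± 0.0462. Of 2 partners of HCN channels, 1 was lower, Pex5l, which binds the HCN tail, at -0.15 ± 0.0401 (adjusted p 0.0303).

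Beyond the plasma membrane pores, 1 of 11 store-operated and intracellular calcium channel genes was higher at night (against 10% of all genes), Orai3, at 0.21 ± 0.0429. Of 12 calcium pumps and exchangers, 2 were higher (against 10%), the Golgi pump gene Atp2c1 at 0.24 ± 0.0420 and the endoplasmic reticulum pump gene Atp2a2 at 0.21 ± 0.0469. Of 2 other TRP-like channels tested, none was called. Among 59 tested potassium channel genes, 11 were higher (against 10% of all genes) and 7 lower (against 6.79%) at night. Kcnc2 differed by -0.59 ± 0.0436, Kcnma1, the BK channel pore, by 0.42 ± 0.0379, Kcnmb1, a BK subunit, by -0.40 ± 0.0441 and Kcnd3 by 0.36 ± 0.0382. Between genotypes, none of these lists had a called gene over both times.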

How the data were processed

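RNA from 8 pools of laser-microdissected SCN was measured on whole-transcript arrays. Per the labels' protocols, RNA was purified on columns and amplified and labelled with biotin by whole-transcript kits. The authors deposited log2 values for 28853 probe sets, and their background correction, summary and normalization are not given in the sources used here. Because lower quartiles differed between arrays by up to 0.139, above the 0.1 allowed, the values were quantile normalized in limma, which hides any shift common to most genes. The platform annotation gave 21789 probe sets exactly 1 symbol. RefSeq (assembly GRCm38.p6) served for names, gene order and promoters.

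Group means were fitted to all 8 arrays with limma 3.58.1 under R 4.3.3 (4 residual degrees of freedom, prior 5.58), without a replicate term, and 7 contrasts were taken. Adjusted p-values are Benjamini-Hochberg values from limma over 12452 genes, and a gene was called under 0.05. Values after ± are standard errors, and folds are 2 to the power of the size of a log2 difference. The small number of arrays limits the precision. The fit was tested on simulated data. Alternatives changed the scaling, the filter, the probe set rule, the prior, a replicate block and the arrays kept.

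Every channel gene called in a contrast was named, as were fixed pores tied to firing or rhythm, the 3 smallest p-values where none was called, and up to 4 called genes of each other list. The channel genes and lists were chosen with earlier results of these data known.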

Additional observations from a re-analysis of the deposited data

How the results depend on the processing

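Of the 10 channel genes called between CT18 and CT6 over both genotypes, Cacna1c, Hcn4 and Trpv2 stayed called under all 16 alternatives, and none of the 10 changed sign. The count was 8 with the values as deposited, 7 with median centring, 7 with no filter, 10 with a filter at the 50th percentile, 11 with the mean over probe sets and 11 with a trended robust prior. Leaving out 1 array gave 4 to 13. Leaving out both CT18 A arrays, an alternative chosen after seeing the data, gave 5, and Cacna1g, Cacna1i, Trpc4, Trpc5 and Trpc6 were lost. In KO the same removal lost all 3 called genes and gained Cacna2d1 and Hcn4. There the count of 3 became 5 of 39 with a filter at the 50th percentile (against 9.93% of all genes). It fell without some single arrays. In WT the count of 1 became 2 of 39 with that filter (against 9.32%) and 2 of 42 with the trended robust prior (against 9.01%). It rose without some single arrays. For both genotype contrasts at single times, the genotype contrast over both times and the interaction, the count was 0 under all alternatives. The number of channel genes below 0 in KO minus WT lay between 30 and 39. The 39 came with median centring, where the median over all genes was also lower, at -0.0336. Of the 42 genes, 18 changed sign in at least 1 alternative. The cause of these changes was not tested. A replicate block on the letters A and B gave 9 called channel genes over both genotypes (Cacna1i was lost), 2 in KO (Trpc6 was lost) and 1 in WT. Deviations of the A arrays from their group means correlated between -0.222 and 0.257 for pairs of groups. The labels do not say whether arrays of a letter were handled together, and a batch by letter was not tested.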
